A study of Rattus norvegicus with 56 samples.

Results

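The microRNAs (miRNAs) of the blood vessel wall rno-miR-143-5p, rno-miR-145-5p and rno-miR-126a-5p, were followed in the rat hippocampus from 24 h to 1 y after traumatic brain injury (TBI). They were chosen by name, as products of smooth muscle cells and pericytes (miR-143 and miR-145) and of endothelial cells (miR-126a), and are 3 of the 367 mature miRNAs in the count table. The libraries came from hippocampal tissue of 28 rats given fluid percussion injury and 28 rats given sham surgery, with 4 TBI and 4 sham rats at each of 24 h, 2 w, 1 m, 2 m, 3 m, 6 m and 1 y. Each library held total RNA of 1 rat, with no transgene or drug named, and the strain, sex and age of the rats were not given in the sources used here. Because the time after surgery and the age of the animal moved together, they cannot be told apart in any comparison between intervals.

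A miRNA is cut from a hairpin precursor, and its seed, bases 2 to 8 of the mature strand, pairs with messenger RNAs and lowers their output. miR-143 and miR-145 are made from neighbouring hairpins and are known for holding smooth muscle cells in their contractile state, whereas miR-126 is made from a hairpin inside Egfl7, a gene of endothelial cells, and is known for its part in vessel growth and integrity. In brain tissue these cells form the walls of arterioles and capillaries, among a far larger number of neurons and glia.

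All 3 names were matched to mature sequences of RefSeq. The sequences are shown because the seeds set which transcripts each miRNA can bind, and capitals mark the seed.
rno-miR-143-5p: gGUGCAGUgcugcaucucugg
rno-miR-145-5p: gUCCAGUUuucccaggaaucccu
rno-miR-126a-5p: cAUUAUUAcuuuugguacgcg
The 3 seeds were different from each other, and none was shared with any other of the 693 mature rat miRNA names in the RefSeq table. The mature strands were 21 bases long for miR-143-5p and miR-126a-5p and 23 bases for miR-145-5p, and their GC content was 61.9% for miR-143-5p, 52.2% for miR-145-5p and 38.1% for miR-126a-5p. In the GRCr8 assembly miR-143-5p was placed at chr18:57371408-57371428 and miR-145-5p at chr18:57370033-57370055, both on the minus strand and both within the long noncoding gene Carmn. Their hairpins were separated by 1278 bases. miR-126a-5p was placed at chr3:29813182-29813202 on the plus strand within Egfl7, under the RefSeq gene symbol Mir126b. The partner strands miR-143-3p, miR-145-3p and miR-126a-3p had no row in the count table and could not be analysed. The known roles given above are those of the miRNA genes, not of the strands counted here alone.

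The 56 libraries held between 69628 and 12468979 counts, with a median of 5332934.5. The lowest, of TBI rat X747 at 2 m, stood apart, since the next lowest total was 2083604. The fits, means and ratios below that turn on it are also given without it. Neuronal miRNAs on a list of 7 summed to between 148579.7 and 355372 CPM (the count scaled to library size, with TMM scaling between libraries) and each of them passed the filter. Of the striated muscle miRNAs, 2 of 4 striated muscle miRNAs had no reads in any library, and the list of 4 summed to at most 11.5 CPM in the library of rat X747 and to at most 1.96 CPM in the other 55. Libraries carry a number in their labels, and the 1 m and 2 m libraries have the highest ones (21 to 28). What these numbers stand for is not given in the sources used here.

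All 3 miRNAs were detected in every library, at moderate levels among the rows of the count table. miR-126a-5p, the endothelial product, was the most abundant, with a median of 706 CPM over the 56 libraries and a range of 217 CPM (TBI rat X769, 1 m) to 1009 CPM (sham rat X752, 2 m). It ranked 71 by mean CPM among the 367 miRNAs. Of these, 309 are named as 5p strands, 5 as 3p strands and 53 without a strand. Ranks and CPM are thus relative to a table with few 3p strands, not to all miRNAs of the tissue. miR-145-5p ranked 82, with a median of 434 CPM and a range of 218 CPM (sham rat X461, 24 h) to 1266 CPM (TBI rat X750, 2 m). miR-143-5p was far lower, with a median of 47.9 CPM. Its lowest value was 34.7 CPM and its highest was 115 CPM, the latter in the library of rat X747 and from only 10 counts (143.6 CPM of the unscaled total, with an exact 95% interval of 68.9 to 264 CPM for counting error alone). Without that library the highest value of miR-143-5p was 69.1 CPM. The number of cells of a type and the amount of RNA per cell cannot be told apart in such bulk tissue.

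The members also differed in how much they varied between rats of 1 group. The standard deviation of log2 CPM within groups was 0.44 for miR-145-5p, 0.31 for miR-143-5p and 0.30 for miR-126a-5p. The value of miR-143-5p includes rat X747 (10 counts), whose deviation of 1.04 from its group mean was the largest of the 56. The standard deviation was not computed without that rat. The order of miR-143-5p and miR-126a-5p and the percentile of miR-143-5p may turn on it. The median over the 244 miRNAs that passed the filter in all 56 libraries was 0.30, so that miR-145-5p was at the 68.0th percentile of these miRNAs and the others were near the middle, at 51.6 and 47.95.

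**Figure D1:**
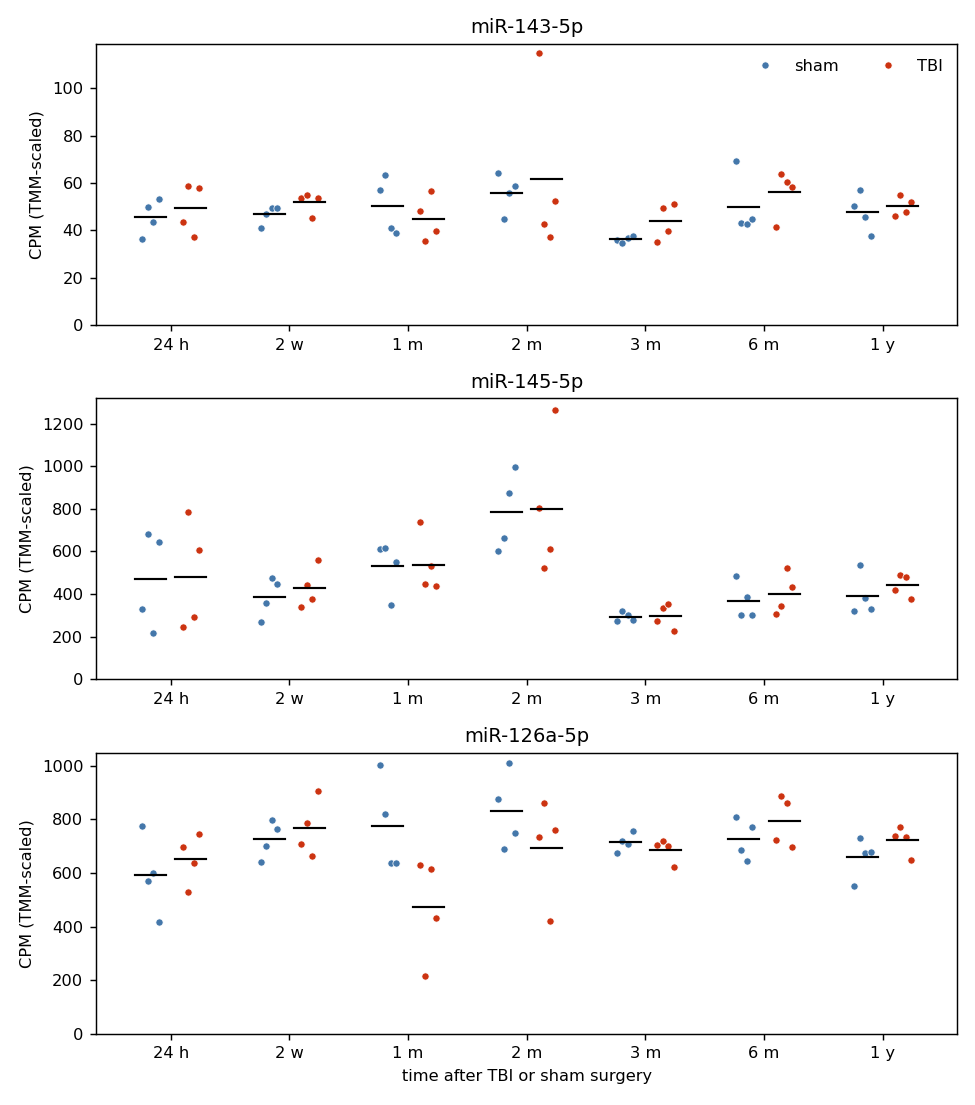
CPM of miR-143-5p, miR-145-5p and miR-126a-5p (y axes, from 0) in each of the 56 libraries, by time after surgery (x axis), sham in blue and TBI in red, with black bars at the group means of 4 rats. The TBI and sham points overlap at every interval except for miR-126a-5p at 1 m. The group means of miR-145-5p are highest at 2 m and lowest at 3 m in sham and in TBI rats.

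None of the vessel wall miRNAs passed the test of TBI against sham at any interval. By the quasi-likelihood test of edgeR, adjusted over all miRNAs tested by the Benjamini-Hochberg method, 0 of the 21 comparisons (3 miRNAs at 7 intervals) had an adjusted p under 0.05, and 1 had an unadjusted p under 0.05. The likelihood ratio tests of edgeR and DESeq2 and the Wald test of DESeq2 each also gave 0 of 21 after adjustment and 1 of 21 before it. Over all miRNAs tested, 1.72% were called at 24 h (4 of 233), 0.417% at 1 m (1 of 240) and 0.0% at 2 w, 2 m, 3 m, 6 m and 1 y, so calls were rare at every interval. At those 5 intervals the number of miRNAs with an unadjusted p under 0.05 was 21, 17, 12, 11 and 22. Of the 21 log2 fold changes 16 were above 0 and 5 were below 0.

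Of the 21 comparisons, that of miR-126a-5p at 1 m was the one with an unadjusted p under 0.05 and with groups that did not overlap. The sham rats had 1003, 822, 639 and 636 CPM. In the TBI rats the values were 629, 614, 433 and 217 CPM. With TMM scaling all 4 TBI values were below all 4 sham values, the nearest being 628.6 CPM after TBI and 636.4 CPM after sham surgery. The means were 473 ± 193 CPM after TBI and 775 ± 175 CPM after sham surgery (SD, n = 4 each). The log2 fold change was -0.68 (SE 0.28, 95% limits -1.28 to -0.08), with an unadjusted p of 0.0298 and an adjusted p of 0.238 in edgeR's quasi-likelihood test. Low p-values were common at 1 m, where 42 of 240 miRNAs (17.5%) had an unadjusted p under 0.05 and miR-126a-5p ranked 29 by p. Exact permutation of the 8 rats (two-sided) gave p = 0.0286, which is the smallest that 4 rats against 4 allow and was not adjusted over the 21 comparisons. Among the 244 miRNAs, 4.51% (11) had all 4 TBI values below all 4 sham values at 1 m. The separation of miR-126a-5p depended on the scaling. In CPM of the unscaled total the groups overlapped, at 590 to 1164 CPM in sham rats and 191 to 770 CPM in TBI rats. Scaled by total count, 0 of the 21 comparisons had an unadjusted p under 0.05 in the quasi-likelihood test.

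The lowest value of miR-126a-5p at 1 m was that of TBI rat X769, whose library held 6639990 counts, 1267 of them from miR-126a-5p. Without it the log2 fold change was -0.46 and the adjusted p was 0.221. When all 56 libraries shared a fit, the log2 fold change was -0.71 and the adjusted p 0.0120, but that fit also called 37 miRNAs at 1 m. Under the other settings the adjusted p was between 0.134 and 0.446. The neuronal list summed to 148579.7 to 229758 CPM in the TBI rats at 1 m and to 216904 to 280730.3 CPM in the sham rats. The leukocyte list summed to 843 to 1236 CPM after TBI and 814 to 935 CPM after sham surgery, and the red cell list to 254 to 359 and 210 to 678 CPM. Single markers behind these sums differed between the groups at 1 m as well, none of them past the adjusted threshold. Of the red cell miRNAs, miR-144-5p had a log2 fold change of -1.51 at 1 m (unadjusted p 0.00517, adjusted 0.195 by the quasi-likelihood test) and miR-451-5p one of -1.21 (unadjusted p 0.0134, adjusted 0.201), while miR-486, which makes up most of the sum (63.4%), had 0.01. The oligodendrocyte miRNA miR-219a-5p had -0.96 (unadjusted p 0.00240, adjusted 0.144) and the other of that list, miR-338-5p, 0.22. Among leukocyte miRNAs miR-142-5p had 0.57 (unadjusted p 0.0110, adjusted 0.195) and miR-150-5p 0.22. Of the neuronal miRNAs, miR-9a-5p, which makes up most of the sum (80.1%), had -0.29. In the same list miR-218a-5p had -0.48 (unadjusted p 0.0174, adjusted 0.232 by the quasi-likelihood test). Going the other way were miR-129-5p with 0.97 (unadjusted p 0.0131, adjusted 0.201) and miR-128-1-5p with 0.61 (unadjusted p 0.0424, adjusted 0.255). The rest of the neuronal list had between -0.39 and 0.15. The part of these other cells in the result was not tested.

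At the intervals other than 1 m the ranges of miR-126a-5p overlapped between TBI and sham. At 24 h the means were 591 ± 147 CPM in sham rats and 652 ± 93.9 CPM in TBI rats (log2 fold change 0.15, SE 0.19). At 2 w sham and TBI means were 727 ± 69.5 and 767 ± 106 CPM. The 2 m values were 689 to 1009 CPM after sham surgery and 421 to 861 CPM after TBI, with a log2 fold change of -0.28 (SE 0.22), or -0.32 without rat X747. At 3 m the groups were nearly level and tight, at 714 ± 34.3 CPM in sham and 687 ± 42.9 CPM in TBI rats (log2 fold change -0.01, 95% limits -0.18 to 0.15). At 6 m and 1 y the mean was higher after TBI than after sham surgery, by 0.12 on the log2 scale at each (SE 0.11 and 0.10). The adjusted p for these 6 intervals was between 0.545 and 0.981 in edgeR's quasi-likelihood test.

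For miR-145-5p, the more abundant smooth muscle product, the TBI and sham means were close at every interval. At 24 h the sham rats had 331, 681, 218 and 645 CPM. The TBI rats of that interval had 245, 783.7, 292 and 606 CPM. The values thus fell into a high and a low pair within each group, and the high pair in each was the one with the even number in the library labels (2 in sham, 4 in TBI). miR-143-5p split by the same numbers at 24 h. In sham rats it had 50.0 and 53.2 CPM (number 2) against 36.3 and 43.7 CPM (number 1). In TBI rats it had 58.6 and 58.1 CPM (number 4) against 43.3 and 37.0 CPM (number 3). miR-126a-5p split the other way in sham rats, where both values of number 1 were above those of number 2 (572 and 417 CPM). In TBI rats its values overlapped, at 697 and 637 CPM (number 3) against 528 and 746 CPM (number 4). The split by label number was seen after the values were known and was not tested. The share of all miRNAs that split by these numbers was not counted. The 24 h comparison of miR-145-5p had the widest limits of all, a log2 fold change of 0.06 with 95% limits of -0.88 to 0.99.

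From 2 w on, the log2 fold changes of miR-145-5p were 0.16 (2 w), 0.06 (1 m), 0.03 (2 m), 0.06 (3 m), 0.11 (6 m) and 0.16 (1 y), with standard errors between 0.13 and 0.29. The adjusted p was between 0.696 and 0.993 over the 7 intervals in edgeR's quasi-likelihood test. At 3 m, where the spread was smallest, the limits ran from -0.22 to 0.35. The 2 m TBI group held both the highest value of this miRNA and the value from the fewest counts. Rat X750 had 1266 CPM, rats X749 and X748 had 521 and 609.6 CPM, and rat X747 had 803.5 CPM from 70 counts. Without rat X747 the 2 m log2 fold change was 0.02 (SE 0.32).

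miR-143-5p, made from the hairpin beside that of miR-145, had larger mean values after TBI at 5 intervals in the fit and smaller ones at 1 m and 2 m. With all libraries its largest difference was at 3 m, but without rat X747 that at 2 m was larger. At 3 m the sham rats had 36.0, 34.7, 36.8 and 37.7 CPM, a very narrow range, and the TBI rats had 35.2, 49.6, 39.8 and 51.0 CPM. The log2 fold change was 0.33 (SE 0.16, 95% limits -0.02 to 0.69), with an adjusted p of 0.533 in edgeR's quasi-likelihood test. In that interval 3 of 4 TBI rats were above all sham rats, and the exact permutation test gave p = 0.114. The TBI libraries at 3 m were shallow, with 2083604 to 4079505 counts, and held 67 to 221 counts of miR-143-5p.

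At 2 w also, 3 of 4 TBI rats were above all sham rats for miR-143-5p, with means of 51.9 ± 4.42 and 46.8 ± 4.05 CPM (log2 fold change 0.17, SE 0.12). At 2 m the TBI mean of 61.8 ± 35.9 CPM included the 115 CPM of rat X747. Leaving that rat out gave 44.1 ± 7.61 CPM (n = 3) against 55.9 ± 8.20 CPM in sham rats (n = 4), and moved the log2 fold change from -0.19 (SE 0.29) to -0.37 (SE 0.23, adjusted p 0.631 in the quasi-likelihood test). At 24 h, 1 m, 6 m and 1 y the log2 fold changes were 0.11, -0.11, 0.16 and 0.06, each below its standard error.

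**Figure D2:**
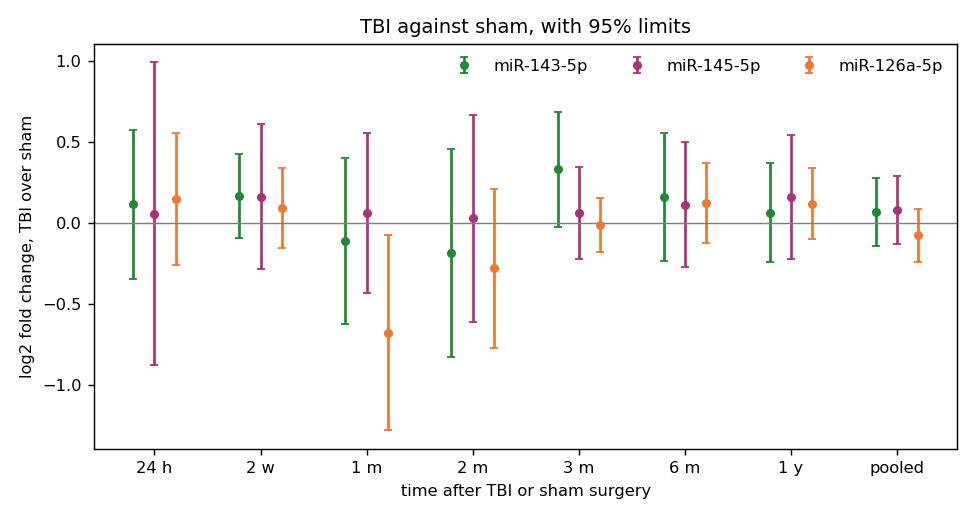
Log2 fold change of TBI over sham (y axis) for each miRNA at each interval and pooled over intervals (x axis), with points at the edgeR estimate and bars at its 95% limits, unadjusted. The limits include 0 in every case but miR-126a-5p at 1 m, where they run from -1.28 to -0.08.

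Pooling the intervals, with a mean for each interval and a shared TBI term, narrowed the limits and called none of the 3. The log2 fold change was 0.07 for miR-143-5p (95% limits -0.14 to 0.28), 0.08 for miR-145-5p (-0.13 to 0.29) and -0.08 for miR-126a-5p (-0.24 to 0.09). The adjusted p was 0.894, 0.857 and 0.756 in edgeR's quasi-likelihood test, and 4.51% of the 244 miRNAs tested (11) were called. Without rat X747 the 3 log2 fold changes were 0.04, 0.07 and -0.08 in the same order. Whether the TBI effect differed between intervals was tested with 6 interaction terms. The adjusted p of that test was 0.854 for miR-143-5p, 0.999 for miR-145-5p and 0.334 for miR-126a-5p, whose unadjusted p was 0.0327, while 2.87% of miRNAs (7) were called. Without rat X747 it was 0.530, 1.00 and 0.259. The change of miR-126a-5p at 1 m was thus not shown to differ from its changes at the other intervals.

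The level of miR-145-5p, in contrast, differed between intervals. Among the 28 sham libraries the 6 interval terms gave an adjusted p of 0.00580 for miR-145-5p, 0.137 for miR-143-5p and 0.180 for miR-126a-5p in edgeR's quasi-likelihood test. Such differences were common, since 27.1% of the 240 miRNAs tested (65) were called. In the 28 TBI libraries, a comparison added after the data were seen, the adjusted p was 0.0338, 0.738 and 0.103 in the same order, and 25% (60) were called. Scaling by total count gave miR-143-5p an adjusted p of 0.0438 across the sham intervals. Leaving out 1 rat kept the sham result for miR-145-5p between 0.00259 and 0.0390. The TBI result was lost without rat X750 at 2 m (adjusted p 0.144) and without rat X94 at 3 m (0.0534), and was 0.0495 without rat X747.

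Sham rats had their highest mean of miR-145-5p at 2 m, 783.4 ± 182 CPM, followed by 1 m (531 ± 126), 24 h (469 ± 229.6), 1 y (392 ± 101), 2 w (387 ± 93.0), 6 m (369 ± 85.3) and 3 m (292 ± 22.1 CPM, SD, n = 4 each). Neighbours in this order overlapped in every case. The ends did not. At 2 m the sham values were 603, 663, 873 and 995 CPM. At 3 m they were 272, 319, 302 and 277 CPM. The TBI rats had the same order at the ends, with 800.0 ± 332 CPM at 2 m (799 ± 407 CPM without rat X747, n = 3) and 298 ± 57.1 CPM at 3 m, and again no overlap. The 2 m values lay wholly above the 3 m values for 18.4% of the 244 miRNAs in sham rats and for 6.15% in TBI rats. These intervals were picked as the ends of the order of miR-145-5p itself, so their separation was partly set by the choice. The shares are for this fixed pair and not for the own ends of each miRNA. They are therefore not a like background, and no conclusion is drawn from them.

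The intervals also differed in depth and in the numbers of their libraries, beside these levels of miR-145-5p. The median total count of the sham libraries was 7108154.5 at 2 m and 4172231 at 3 m. In the TBI libraries it was 8810343.5 and 2678606.5. The sham libraries of 2 m carry the label numbers 25 and 26 and those of 3 m the numbers 9 and 10. Choroid plexus miRNAs, led by miR-204-5p, summed to a median of 1273 CPM in sham rats at 2 m and 11052 CPM at 3 m, and neuronal ones to 218425 and 265416 CPM. The choroid plexus sums of the 3 m sham rats were 2596, 3717, 18387 and 20842 CPM, so no library was near their median. In TBI rats the medians of these sums were 1668 CPM at 2 m and 4106 CPM at 3 m. Time after surgery, age, library number and the makeup of the dissected tissue cannot be told apart here, and their part in the result was not tested.

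All 3 members had their highest sham mean at 2 m, and their courses over time were not compared by a test. miR-126a-5p in sham rats was highest at 2 m (831 ± 142 CPM) and lowest at 24 h (591 ± 147 CPM), and at 3 m it was in the middle at 714 ± 34.3 CPM. In TBI rats it was highest at 6 m (793.8 ± 95.5 CPM) and lowest at 1 m (473 ± 193 CPM). miR-143-5p in sham rats ran from 55.9 ± 8.20 CPM at 2 m to 36.3 ± 1.28 CPM at 3 m, the same ends as miR-145-5p with a smaller step. In TBI rats miR-143-5p had 61.8 ± 35.9 CPM at 2 m (44.1 ± 7.61 CPM without rat X747, n = 3). It had 56.0 ± 9.88 CPM at 6 m and 43.9 ± 7.66 CPM at 3 m in those rats. Without rat X747 its highest TBI mean was thus at 6 m, unlike that of miR-145-5p. Between sham rats of 1 y and 24 h, the ends of the study, none of the 3 was called, with log2 differences of 0.06 (SE 0.18) for miR-143-5p, -0.26 (SE 0.27) for miR-145-5p and 0.16 (SE 0.16) for miR-126a-5p. Adjusted p-values were between 0.574 and 0.921 in that quasi-likelihood contrast, and 1.67% of miRNAs (4) were called.

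Ratios of 2 members within a library do not depend on the scaling between libraries. miR-145-5p reads outnumbered miR-143-5p reads in every library, by 4.48 to 24.2 times with a median of 8.87. The partner strands had no row, so this is not the ratio of the whole output of the neighbouring hairpins. The mean ratio was 14.2 ± 3.33 in sham rats at 2 m and 8.07 ± 0.83 at 3 m. TBI rats had 14.9 ± 7.25 and 6.98 ± 1.87 at the same intervals, with 17.6 ± 6.07 at 2 m without rat X747 (n = 3). The TBI minus sham difference of the log2 ratio, pooled over intervals, was -0.02 (p = 0.852, permutation test with labels exchanged within intervals, 56 libraries) and 0.02 without rat X747.

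For miR-126a-5p over miR-145-5p, endothelial over smooth muscle reads, the ratio ran from 0.49 to 2.85 with a median of 1.69. At 1 m it was 1.16 to 1.84 in sham rats and 0.49 to 1.16 in TBI rats, whose highest value was only just above the lowest sham value. Pooled over intervals the log2 ratio differed by -0.17 between TBI and sham (permutation p = 0.207, 0.311 after adjustment over the 3 ratios). miR-126a-5p over miR-143-5p differed by -0.18 (permutation p = 0.0553, adjusted 0.166). Without rat X747 these 2 differences were -0.16 and -0.14. None of the 3 ratios passed the threshold with all 56 libraries.

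**Figure D3:**
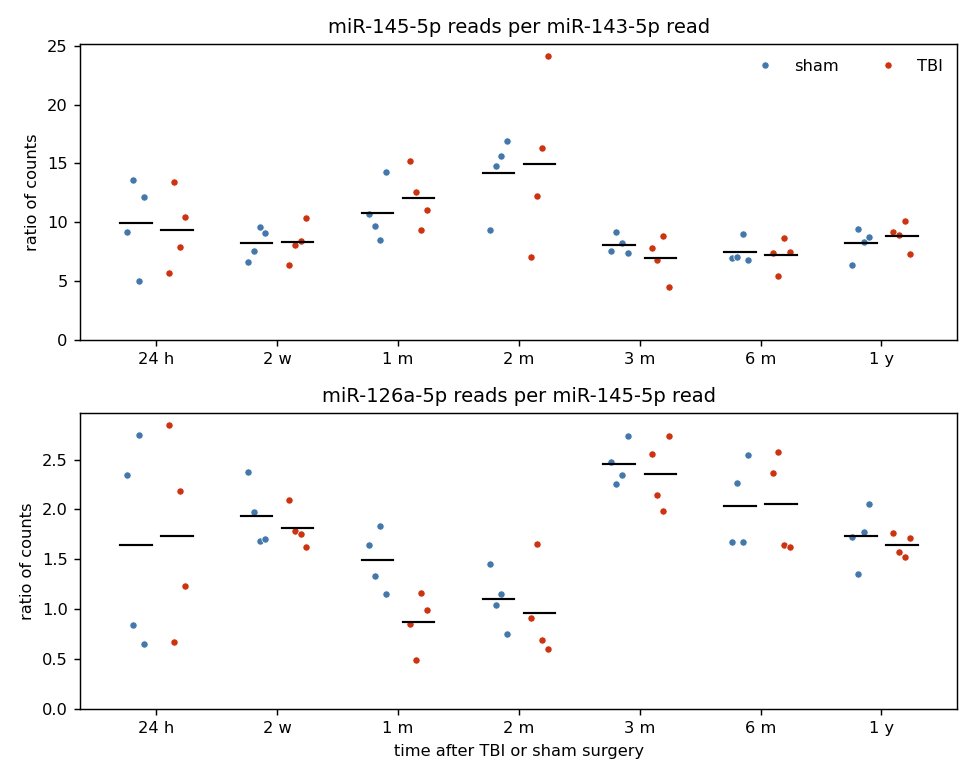
Counts of miR-145-5p per count of miR-143-5p (top) and of miR-126a-5p per count of miR-145-5p (bottom) in each library (y axes, from 0) by time after surgery (x axis), sham in blue, TBI in red, black bars at group means. The upper ratio is highest at 2 m, reaching 24.2 in a TBI rat, and the group means of the lower ratio are highest at 3 m.

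Within groups, the pair made from neighbouring hairpins rose and fell together from rat to rat. After the mean of each of the 14 groups was taken out, log2 CPM of miR-143-5p and miR-145-5p correlated over 56 libraries with Pearson's r = 0.485 and Spearman's rho = 0.579. Permuting rats within groups gave p = 0.00344 for r and 0.00022 for rho, or 0.0413 and 0.00264 after adjustment over 12 relations. Without the 2 libraries farthest from the median of miR-143-5p, of rats X747 and X748, r was 0.55. The relation was seen in sham rats (r = 0.574, rho = 0.625, n = 28) and in TBI rats (r = 0.437, rho = 0.550, n = 28). It includes the 24 h libraries, in which both miRNAs split with the label number, and the permutation did not take that number into account. The part of this split in the relation was not tested.

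miR-126a-5p followed the pair less closely. Its r with miR-143-5p was 0.338 and its rho 0.361 (adjusted permutation p 0.261 and 0.160), and r fell to 0.272 without the same 2 libraries. With miR-145-5p r was 0.160 and rho 0.270 (adjusted permutation p 0.464 and 0.238), and r was 0.245 without rats X461 and X593. That the pair of smooth muscle miRNAs was more closely related than either was to miR-126a-5p was not tested as a difference. Relations with the summed red cell, leukocyte or choroid plexus miRNAs did not pass the adjusted threshold with TMM scaling, with rho between -0.18 and 0.33 in the 9 relations. This depended on the scaling: by total count, rho passed for leukocytes with miR-143-5p (0.485) and miR-145-5p (0.543), for red cells with miR-145-5p (0.418), and for miR-126a-5p with miR-143-5p (0.531) and miR-145-5p (0.438). With group means left in, choroid plexus passed with miR-143-5p (-0.39) and miR-145-5p (-0.42), and miR-143-5p with miR-126a-5p (0.416).

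**Figure D4:**
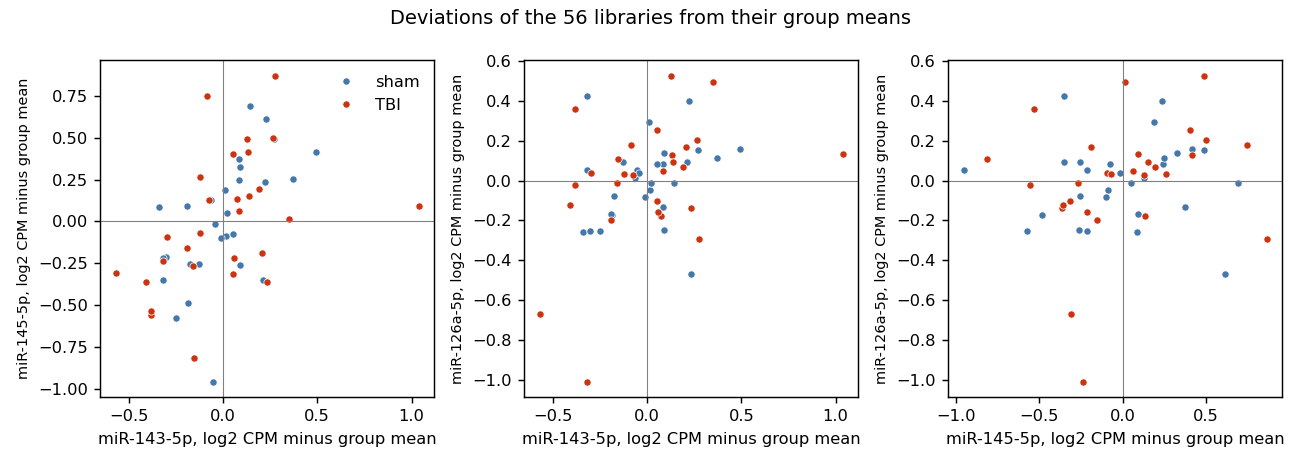
Deviation of log2 CPM from the mean of its group for each pair of members in 56 libraries (both axes in log2 units), sham in blue and TBI in red. Points of miR-143-5p against miR-145-5p (left) run from lower left to upper right (rho = 0.579), and those with miR-126a-5p (middle and right) scatter more widely (rho = 0.361 and 0.270). The point at the far right of the left and middle panels is rat X747.

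By the same measure, Spearman's rho of deviations from group means over 56 libraries, the miRNAs most like each member were sought among the 244 that passed the filter. For miR-143-5p these were miR-30b-5p (0.660), miR-345-5p (0.613) and its neighbour miR-145-5p (0.579). For miR-145-5p they were miR-30b-5p (0.712), miR-345-5p (0.708) and miR-124-5p (0.694), a miRNA of neurons, with miR-143-5p at rank 7. For miR-126a-5p they were miR-335 (0.711), miR-592 (0.662) and miR-340-5p (0.597). miR-143-5p stood at rank 26 and miR-145-5p at rank 54 in the list for miR-126a-5p. The vessel wall miRNAs were therefore not each other's closest matches, apart from miR-145-5p among the top 3 of miR-143-5p.

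Other miRNAs linked to endothelium, smooth muscle, pericytes or mesenchymal cells formed a list of 22, of which 18 had a row and 16 passed the filter over 56 libraries. At 24 h 1 of 16 was called and 0 of the 14 to 16 tested at each of the other 6 intervals, beside the 1.72% and the 0.417% or 0.0% of all miRNAs given above. At 24 h this was miR-27a-5p, from a cluster also expressed in endothelium, with a log2 fold change of 0.97 (SE 0.20, adjusted p 0.0361 in edgeR's quasi-likelihood test). Pooled over intervals 3 of 16 were higher after TBI and 0 were lower, where 11 of all 244 miRNAs (4.51%) were called, all of them higher. These were miR-27a-5p by 0.42, miR-92a-1-5p by 0.51 and miR-24-2-5p by 0.15. Of these, miR-92a-1-5p was scarce, with a median of 1.47 CPM and at most 27 counts in a library. Whether the 3 calls are independent of each other was not tested. The list was chosen with earlier results of these data known, and its counts were not tested against those of all miRNAs. The median log2 fold change of the list was 0.06 at 24 h and 0.04 pooled, against -0.02 and -0.01 over all miRNAs tested.

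Across the sham intervals, 5 of the 16 listed miRNAs were called, namely miR-10b-5p, miR-24-2-5p, miR-322-5p and the cluster pair miR-497-5p and miR-195-5p. Across the TBI intervals 3 were called, miR-221-5p, miR-24-1-5p and miR-195-5p. The shares over all miRNAs were 27.1% and 25%, so these counts are near the background and are no result of the list. The summed level of the list was between 1747 and 2666 CPM in sham rats and between 1907 and 2944 CPM in TBI rats. It was lower at 24 h (1747 to 2312 CPM in sham and 1907 to 2052 CPM in TBI rats) than at 2 m (2425 to 2666 and 2222 to 2944 CPM). This difference was not tested, and the share of all miRNAs that differ in this way was not counted. The 1 m TBI rats, in which miR-126a-5p was low, had 2082 to 2556 CPM for this list, against 2139 to 2397 CPM in the sham rats.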

How the data were processed

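The deposited table holds raw read counts per mature miRNA, which the authors made from libraries of the NEBNext small RNA kit, converted with bcl2fastq 2.20.0.422 (the submitters' processing notes), trimmed and counted with miRDeep2 against miRBase. How reads that match several miRNAs were divided, and the genome build, were not given in the sources used here. 0 columns were left out, and 34 of 367 miRNAs had no reads. The members and lists were chosen with earlier results of these data known. Named miRNAs were the 3 members, the listed marker miRNAs, and the 3 most like each member.

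The 8 libraries of an interval were fitted apart from the rest. edgeR 4.0.16 under R 4.3.3 was used for the filter (filterByExpr), the scaling (TMM) and the quasi-likelihood test, with p-values adjusted over all tested miRNAs by Benjamini-Hochberg and 0.05 as the threshold. Pooled, interaction and interval tests used 56 or 28 libraries. Standard errors and limits were taken from the p-value and degrees of freedom of the test. Log2 CPM had a prior count of 2, and ratios a pseudocount of 0.5. Permutation tests were two-sided, exact over 70 splits for 4 against 4 and with 100000 resamples otherwise. Alternatives were DESeq2 1.42.0 (size factors, Wald and likelihood ratio tests), scaling by total count, no filter or at least 10 counts in every library, edgeR's likelihood ratio test, a joint fit and leaving out each rat. The steps were tested on simulated data. All 84 pairs of libraries within groups differed by more than counting noise, with a chi-square of at least 17.2 per degree of freedom. The marker lists included oligodendrocyte miRNAs, whose sum was 1481 to 3315 CPM. Each library was taken as a separate rat. Reads without molecular identifiers are not independent molecules, so counting intervals cover counting error only. Names, coordinates and sequences come from RefSeq for GRCr8, in which 331 of the 367 names were found. Figures were made with matplotlib.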

Additional observations from a re-analysis of the deposited data

Results flagged for a closer look

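Within 42 groups of 4 rats (3 miRNAs in 14 groups), 2 held a value far from the other 3 by Dixon's criterion, where chance alone gives about 1 in 20 groups, or 2.1. Both were of miR-143-5p. In the TBI group at 2 w, rat tube.22 had 45.3 CPM and the others 53.6 to 54.9 CPM. In the sham group at 6 m, rat tube.53 had 69.1 CPM and the others 42.8 to 44.8 CPM.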

How the results depend on the processing

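Of 51 results of the 3 miRNAs, 25 kept their direction and their side of the threshold under every alternative. The joint fit of 56 libraries gave miR-126a-5p at 1 m a log2 fold change of -0.71 past the threshold, and the exact permutation test gave a log2 difference of -0.80 with its unadjusted p. Scaled by total count, 0 of the 21 interval comparisons, this one included, had an unadjusted p under 0.05 by the quasi-likelihood test. At 2 m the sign turned for miR-143-5p by the permutation test (0.0036) and for miR-145-5p by that test (-0.026) and under scaling by total count (-0.072), a scaling that moved the median of all miRNAs by -0.14 there. Scaling by total count also gave an adjusted p of 0.0438 for miR-143-5p across sham intervals, and a rho past the threshold for miR-126a-5p with miR-143-5p (0.531) and miR-145-5p (0.438), for leukocytes with miR-143-5p (0.485) and miR-145-5p (0.543), and for red cells with miR-145-5p (0.418). With group means left in, rho passed for miR-143-5p with miR-126a-5p (0.416), and for choroid plexus with miR-143-5p (-0.39) and miR-145-5p (-0.42), and turned for leukocytes with miR-145-5p (-0.26) and miR-126a-5p (-0.0031, and -0.0055 without the shallowest library). The cause was not tested.

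Leaving out 1 rat, log2 fold changes of miR-145-5p ran from -0.27 to 0.28 at 24 h, -0.0035 to 0.28 at 2 w, -0.13 to 0.15 at 1 m, -0.32 to 0.22 at 2 m, -0.0069 to 0.14 at 3 m and -0.011 to 0.24 at 6 m, those of miR-126a-5p from -0.0099 to 0.15 at 2 w and -0.078 to 0.0097 at 3 m, and those of miR-143-5p from -0.016 to 0.19 at 1 y and -0.10 to 0.16 between sham 1 y and 24 h. Adjusted p across intervals ran from 0.0491 to 0.342 (miR-126a-5p, sham, lowest without rat X457), 0.0487 to 0.272 (miR-126a-5p, TBI, lowest without rat X756) and 0.00925 to 0.144 (miR-145-5p, TBI). The log2 ratio of miR-145-5p to miR-143-5p ran from -0.055 to 0.023, and that of miR-126a-5p to miR-143-5p from -0.22 to -0.14, with an adjusted p of 0.0480 without sham rat X594 at 24 h.

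Counts of called miRNAs moved by over 1.5 times at 2 w (0 against 8 by edgeR's likelihood ratio test, 7 and 6 by DESeq2), 1 m (1 against 5 by each of these, 37 jointly and 2 unfiltered), 2 m (0 against 2 and 1), 3 m (0 against 1 by DESeq2), 24 h (4 against 8 jointly), pooled (11 against 5 by total count) and interaction (7 against 11 by DESeq2). Leaving out 1 rat, they ran from 2 to 5 at 24 h, 0 to 6 at 2 w, 1 to 7 at 1 m, 0 to 2 at 2 m, 0 to 1 at 1 y, 4 to 15 pooled, 5 to 18 for the interaction, 0 to 17 for sham 1 y against 24 h (4 with all), 39 to 81 across sham intervals (65) and 43 to 85 across TBI intervals (60). At 1 y, sham and TBI libraries share numbers, but pairs with the same number had deviations that correlated between -0.17 and 0.33, so they were not taken as pairs. With the number as a replicate block the log2 fold changes were 0.07 (miR-143-5p), 0.19 (miR-145-5p) and 0.13 (miR-126a-5p), and 0 miRNAs were called with or without it (22 had an unadjusted p under 0.05 without it). Depth limits miR-143-5p most, with 10 counts in rat X747.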
